A study of Mus musculus with 2 samples.

Results

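Parietal endoderm and the control of blood clotting meet in a small set of genes, of which 9 were followed here: F3, Tfpi, Thbd, F2r, Plat, Pth1r, Fst, Snai1 and Fxyd3. They were chosen by name, and all 9 were found in both deposited tables, which together hold 22802 gene symbols. The series compares single cells of synthetic embryoids with cells of the mouse blastocyst, using 1 library of polyadenylated RNA per group made with the BD Rhapsody whole transcriptome kit. Embryoids joined 10000 embryonic stem (ES) cells, derived from Lifeact-RFPRuby mice, with 50000 to 80000 XTE cells, which had been reprogrammed from Gata6-H2B:Venus ES cells and which the series title calls trophectoderm-like. Before joining, ES cells were kept with serum, PD0325901 at 0.4 μM, CHIR99021 at 3 μM and Lif at 4 ng/ml. XTE cells were kept on fibronectin in N2B27 with CHIR99021 at 3 μM, BMP4 at 50 ng/ml, Fgf4 at 25 ng/ml, heparin at 1 μg/ml and Activin at 20 ng/ml. The aggregates spent 48 h in aggregation wells and 48 h in repellent plates. The blastocyst group was whole B6C3F1 embryos at embryonic day 4.5. TrypLE was used for dissociation and 6000 cells went into each library, and the number of embryoids or embryos pooled is not given in the sources used here.

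Parietal endoderm descends from primitive endoderm (PrE), the layer that covers the epiblast at implantation. In the mouse its cells migrate onto the inner face of the trophectoderm and lay down Reichert's membrane, a thick basement membrane that separates the embryo from maternal blood. Tissue factor, the product of F3, starts coagulation by binding factor VII, and tissue factor pathway inhibitor (Tfpi) blocks that complex. Thrombomodulin (Thbd) turns thrombin towards the activation of protein C, F2r encodes the thrombin receptor PAR1, and Plat encodes tissue plasminogen activator, which starts fibrinolysis. Pth1r is the receptor through which parathyroid hormone-related protein promotes parietal endoderm in the mouse, and Snai1 is a repressor of epithelial genes. Follistatin (Fst) binds and neutralises activin, and Fxyd3 belongs to the small membrane proteins that regulate the sodium pump.

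After filtering, 5328 embryoid and 1079 blastocyst cells were analysed, with a median of 4768.5 and 9278 unique molecular identifiers (UMIs) per cell. Of the embryoid cells, 4691 fell into 8 PrE-like clusters, 107 were epiblast-like (EPI-like) and 143 resembled fibroblasts or extraembryonic mesoderm (FIB-like). No embryoid cluster was trophectoderm-like (TE-like), although XTE cells made up most of the seeded cells. The blastocyst library held 447 PrE-like, 257 EPI-like and 375 TE-like cells. The 9 genes, the marker genes and the genes of the first 10 lists were kept out of the clustering. No class or cluster was thus formed on their values, although genes that vary with them were used. The immediate-early and YAP target genes described below were not kept out. The files share 9 cell barcodes, 7 of them among the analysed cells. Levels are UMIs summed over a class and scaled to a common total (CPM), and brackets after a level hold an exact Poisson 95% interval. With 1 library per group there is no test of any difference, intervals cover counting error only, and embryoid against blastocyst cannot be told apart from library against library. Levels were not scaled for gene length and are compared within a gene, not between genes.

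Promoters of the clotting initiator, its inhibitor and the thrombin receptor are shown because, in the results below, F3 was higher and F2r and Tfpi were lower in embryoid endoderm. Of the 9 genes, 6 had entries in the RefSeq promoter table (GRCm38.p6), with 9 start sites in all. Each window runs 5′ to 3′ on the gene's strand from 250 bases before to 50 bases after the start site, with the matched letters below in capitals.
F3 (chr3:121723287-121723586, plus strand): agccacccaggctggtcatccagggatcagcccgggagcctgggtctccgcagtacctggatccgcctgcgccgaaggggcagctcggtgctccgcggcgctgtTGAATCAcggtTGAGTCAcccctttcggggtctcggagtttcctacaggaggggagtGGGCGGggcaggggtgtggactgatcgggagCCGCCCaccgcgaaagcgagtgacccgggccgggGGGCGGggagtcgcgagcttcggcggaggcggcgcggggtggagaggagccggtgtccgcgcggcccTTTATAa
F2r (chr13:95618417-95618716, minus strand): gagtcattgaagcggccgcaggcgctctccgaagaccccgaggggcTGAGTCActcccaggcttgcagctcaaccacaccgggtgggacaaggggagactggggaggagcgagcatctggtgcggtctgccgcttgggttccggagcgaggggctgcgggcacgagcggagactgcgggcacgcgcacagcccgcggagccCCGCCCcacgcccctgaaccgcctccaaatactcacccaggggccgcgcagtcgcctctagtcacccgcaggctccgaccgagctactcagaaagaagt
Tfpi, first start (chr2:84476710-84477009, minus strand): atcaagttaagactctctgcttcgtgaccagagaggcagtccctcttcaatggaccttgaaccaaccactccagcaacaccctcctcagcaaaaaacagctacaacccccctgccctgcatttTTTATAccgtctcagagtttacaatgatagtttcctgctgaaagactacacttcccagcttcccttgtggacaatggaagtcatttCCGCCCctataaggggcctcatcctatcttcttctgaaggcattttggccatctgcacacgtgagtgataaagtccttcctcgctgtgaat
Tfpi, second start (chr2:84474125-84474424, minus strand): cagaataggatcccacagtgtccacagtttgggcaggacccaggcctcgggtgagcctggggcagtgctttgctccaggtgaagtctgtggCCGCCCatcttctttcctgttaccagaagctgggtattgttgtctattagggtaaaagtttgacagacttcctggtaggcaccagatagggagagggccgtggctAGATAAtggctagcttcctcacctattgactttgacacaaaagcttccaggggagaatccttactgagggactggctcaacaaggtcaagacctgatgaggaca

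The letters searched on both strands were TGANTCA for AP-1, GGAATG for TEAD, AGATAA for GATA factors, GGGCGG for Sp1, TATAAA for a TATA box and TGACGTCA for CRE. The F3 window held the AP-1 letters at 2 places, beginning 146 and 135 bases before the start, together with 3 Sp1 matches. The F2r window held them once, 204 bases before the start. Neither Tfpi window held the AP-1 letters, which occurred in 7.81% of all 32817 promoter windows. The second Tfpi start had 1 GATA match, found in 11.2% of windows, and Sp1 letters, present at both Tfpi starts, occurred in 35.6%. The TATA box letters, found in 13.6% of windows, began 43 bases after the F3 start and 127 bases before the first Tfpi start. The window of Fxyd3 held the TEAD letters once, as did 14.7% of windows. These matches describe the letters and are no evidence of binding.

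F3 was higher in embryoid than in blastocyst endoderm, and its antagonist Tfpi was lower. F3 (chr3:121723537-121735048, GRCm38) stood at 458 CPM (449 to 466) in embryoid PrE-like cells, against 85.6 CPM (76.9 to 95) in blastocyst PrE-like cells. The log2 ratio, with 1 CPM added to both levels as for all ratios here, was 2.40 (exact 95% interval of the counts 2.27 to 2.58). Tfpi (chr2:84432855-84476775) stood at 333 CPM (326 to 340) in embryoid PrE-like cells, against 683 CPM (658 to 709) in blastocyst PrE-like cells, a log2 ratio of -1.04 (-1.10 to -0.98). Together the 2 genes gave 1.37 F3 UMIs per Tfpi UMI (1.34 to 1.41) in embryoid PrE-like cells and 0.125 (0.112 to 0.140) in blastocyst PrE-like cells.

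In the blastocyst, Tfpi reached beyond the endoderm while F3 did so barely. Tfpi stood at 141 CPM (127 to 156) in EPI-like cells and 6.42 CPM (4.07 to 9.63) in TE-like cells. F3 stood at 3.04 CPM (1.3 to 6.0) in EPI-like cells and 6.42 CPM (4.07 to 9.63) in TE-like cells. PrE-like cells exceeded EPI-like cells by a log2 ratio of 2.27 (2.12 to 2.44) for Tfpi and 4.42 (3.82 to 6.04) for F3. In embryoid EPI-like cells, F3 was at 67.2 CPM (49.5 to 89.1) and Tfpi at 72.8 CPM (54.3 to 95.4), so that F3 in these cells lay far above its blastocyst EPI-like level. Only 12 of the 107 embryoid EPI-like cells carried the 48 F3 UMIs.

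**Figure D1:**
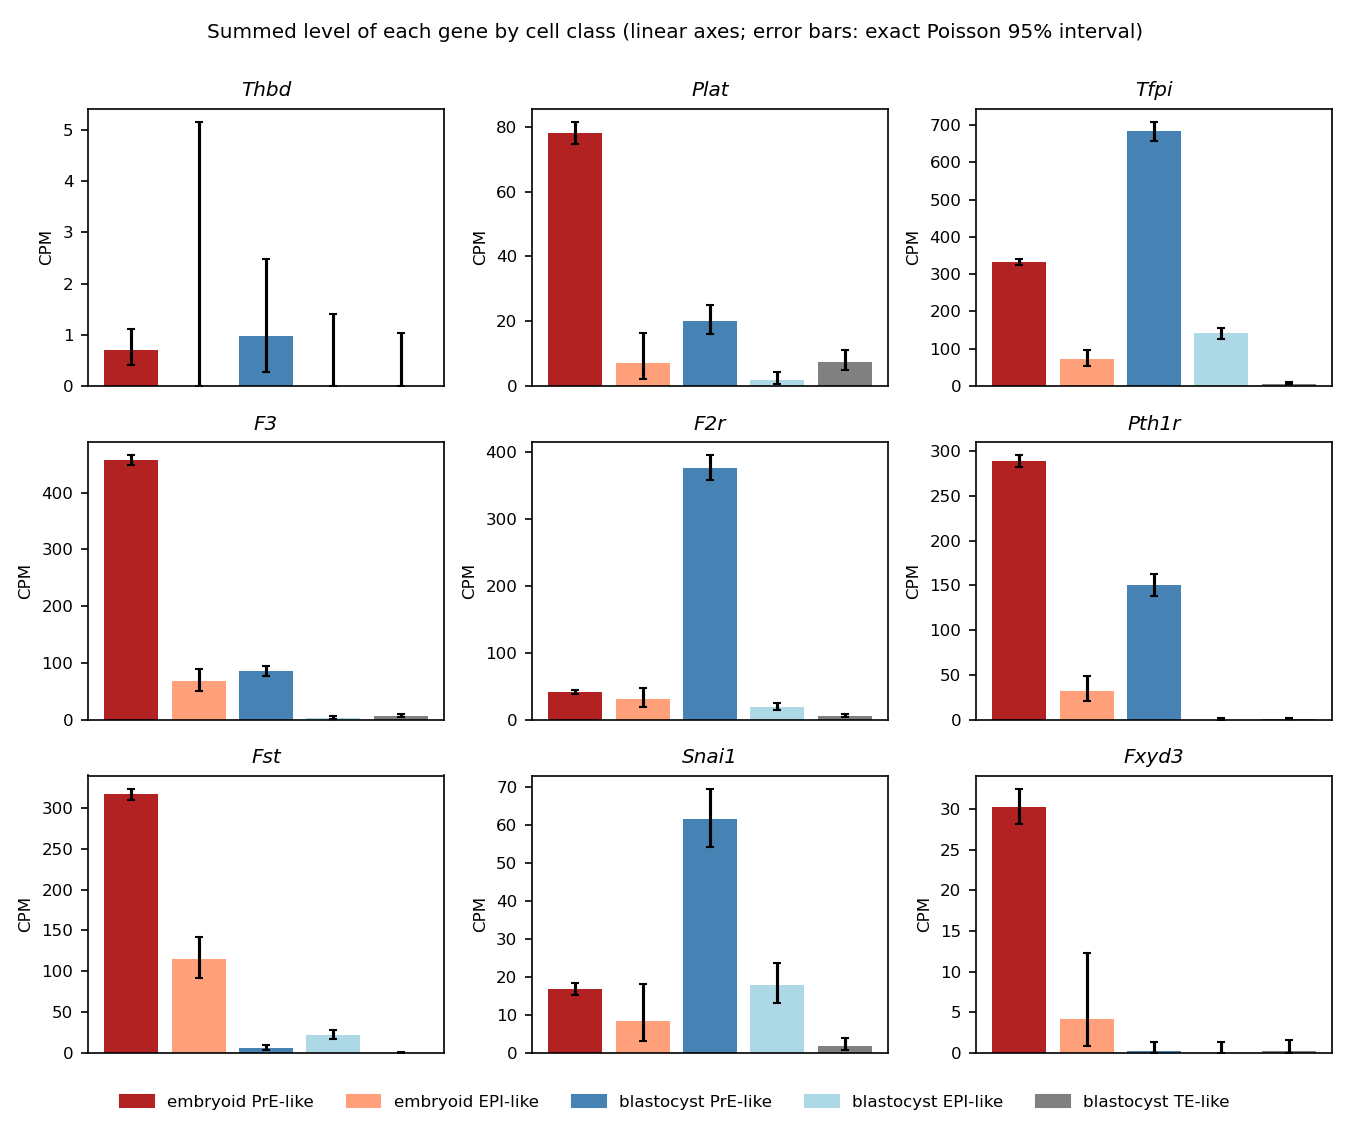
Summed level of each gene in CPM (linear axes from 0) in embryoid PrE-like and EPI-like cells and in blastocyst PrE-like, EPI-like and TE-like cells, with exact Poisson 95% intervals as error bars. F3, Plat, Pth1r, Fst and Fxyd3 are tallest in embryoid PrE-like cells, while Tfpi, F2r and Snai1 are tallest in blastocyst PrE-like cells and Thbd is at or below 0.97 CPM in all 5 classes.

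Detection in single cells had the same order once depth was made equal. After each cell was thinned to 2000 UMIs, F3 was detected in 37.0% of 4412 embryoid PrE-like cells (Clopper-Pearson 95% interval 35.6 to 38.4), against 15.6% of 411 blastocyst PrE-like cells (12.2 to 19.4). Thinning left out 279 embryoid and 36 blastocyst PrE-like cells that were shallower, and without it the shares were 55.4% in embryoid and 40.9% in blastocyst cells. Tfpi was detected in 36.3% of thinned embryoid PrE-like cells (34.8 to 37.7), against 71.8% of blastocyst PrE-like cells (67.2 to 76.1). RNA outside cells can raise such shares, and its amount was not measured. In thinned EPI-like cells of the embryoid library F3 was detected in 8.74% and Tfpi in 13.6%. These cells had a median of 6385 UMIs before thinning, against 4842 in embryoid PrE-like cells. Whether RNA outside cells, doublets or expression in the cells themselves gave the EPI-like shares was not tested.

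Thrombomodulin, a classical marker of parietal endoderm, was almost unmeasured. Thbd (chr2:148404466-148408188) had 18 UMIs in the 4691 embryoid PrE-like cells, or 0.70 CPM (0.41 to 1.11), against 4 UMIs in the 447 blastocyst PrE-like cells, or 0.97 CPM (0.26 to 2.48). It had 0 UMIs in blastocyst EPI-like and TE-like cells, and 3 counts, the floor used here for a count of 0, would be 1.17% of the EPI-like and 0.80% of the TE-like cells. The log2 ratio between the endoderms, -0.21 (-2.07 to 1.55), spanned both directions. A difference in Thbd was therefore not detectable at this depth.

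The thrombin receptor showed the largest deficit of the set in embryoid endoderm. F2r (chr13:95601803-95618487) stood at 41.2 CPM (38.8 to 43.8) in embryoid PrE-like cells, against 376 CPM (358 to 395) in blastocyst PrE-like cells, a log2 ratio of -3.16 (-3.30 to -3.08). Its level in embryoid EPI-like cells was 30.8 CPM (19.3 to 46.6), and the embryoid PrE-like over EPI-like ratio of 0.41 had an interval from -0.18 to 1.10. Thinned cells carried F2r in 7.34% of embryoid PrE-like and 6.80% of embryoid EPI-like cells, so the embryoid endoderm share was not distinguishable from that of cells of another class. In the blastocyst, F2r was highest in the endoderm, with 18.6 CPM (13.8 to 24.6) in EPI-like and 5.86 CPM (3.63 to 8.96) in TE-like cells. PrE-like cells thus exceeded TE-like cells by a log2 ratio of 5.78 (5.39 to 6.70).

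Plat, Pth1r, Fst and Fxyd3 all had higher levels in embryoid endoderm, by very different amounts. Plat (chr8:22757727-22782844) stood at 78.0 CPM (74.7 to 81.5) in embryoid PrE-like cells, against 20.1 CPM (16.0 to 25.0) in blastocyst PrE-like cells, a log2 ratio of 1.90 (1.64 to 2.29). Pth1r (chr9:110722085-110747145) stood at 289 CPM (283 to 296) in embryoid PrE-like cells, against 150 CPM (139 to 162) in blastocyst PrE-like cells. Its log2 ratio of 0.94 (0.83 to 1.07) lay just under 2-fold, the size used here to call a gene apart. Tfpi lay just past that size in the other direction.

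Fst and Fxyd3 were near 0 in blastocyst endoderm. Fst (chr13:114452290-114458951) stood at 316 CPM (310 to 323) in embryoid PrE-like cells, against 6.31 CPM (4.12 to 9.24) in blastocyst PrE-like cells, where 26 UMIs were counted. The log2 ratio was 5.44 (5.10 to 6.26). Fxyd3 (chr7:31068172-31076704) stood at 30.3 CPM (28.2 to 32.5) in embryoid PrE-like cells, against 0.24 CPM (0.0061 to 1.35) in blastocyst PrE-like cells, from 1 UMI. Its log2 ratio of 4.66 had an interval from 4.48 to 12.27. Among blastocyst classes, Fst was highest in EPI-like cells, at 22.1 CPM (16.8 to 28.5). It was the 1 gene of the set that was at least 2-fold lower in PrE-like than in EPI-like cells, with a log2 ratio of -1.66 (-2.53 to -1.12). That 2-fold call was lost with at most 10% mitochondrial UMIs (-0.99) and with 10 CPM added (-0.98).

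Snai1 went the opposite way to Fst. Snai1 (chr2:167538195-167542814) stood at 16.8 CPM (15.2 to 18.5) in embryoid PrE-like cells, against 61.6 CPM (54.3 to 69.7) in blastocyst PrE-like cells, a log2 ratio of -1.82 (-2.10 to -1.65). Blastocyst EPI-like cells had 17.9 CPM (13.1 to 23.8) and TE-like cells 1.95 CPM (0.79 to 4.02). In embryoid EPI-like cells 6 UMIs gave 8.40 CPM (3.08 to 18.3), and the interval of the embryoid PrE-like over EPI-like ratio, -0.13 to 2.45, included 0.

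Of the 9 genes, 4 were at least 2-fold higher in embryoid than in blastocyst PrE-like cells (F3, Plat, Fst and Fxyd3), where 17.2 percent of 9983 genes with a mean of at least 5 CPM were. A further 3 were at least 2-fold lower (Tfpi, F2r and Snai1), where 11.7 percent of genes were. Thbd did not reach the mean of 5 CPM and the other 8 did. The median log2 ratio was 0.94 over the 9 genes and 0.05 over all genes compared. Within the blastocyst, 6 genes were at least 2-fold higher in PrE-like than in EPI-like cells, against 13.8 percent of genes, and 1 was lower, against 10.7 percent. In PrE-like over TE-like cells, 7 were at least 2-fold higher, against 21.2 percent of genes, and 0 were lower, against 11.1 percent. The mean of 5 CPM behind these percentages was reached by 7 of the 9 genes in the EPI-like comparison and by 6 in the TE-like one, where Fst was counted as higher without reaching it. Plat was among the 7 (log2 ratio 1.31), but fell short of 2-fold over TE-like cells with 10 CPM added (0.78), with median-of-ratios scaling (0.96) and with each cell weighted equally (0.80). Fst fell short there with 10 CPM added (0.67). The median log2 ratio over the 9 genes was 2.27 for PrE-like over EPI-like cells, against 0.03 over all genes. It was 3.55 for PrE-like over TE-like cells, against 0.36 over all genes. Pth1r was at least 131.5-fold higher in PrE-like than in EPI-like cells, where it had 0 UMIs, against a floor of 3 UMIs over the class. It had 2 UMIs in TE-like cells.

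**Figure D2:**
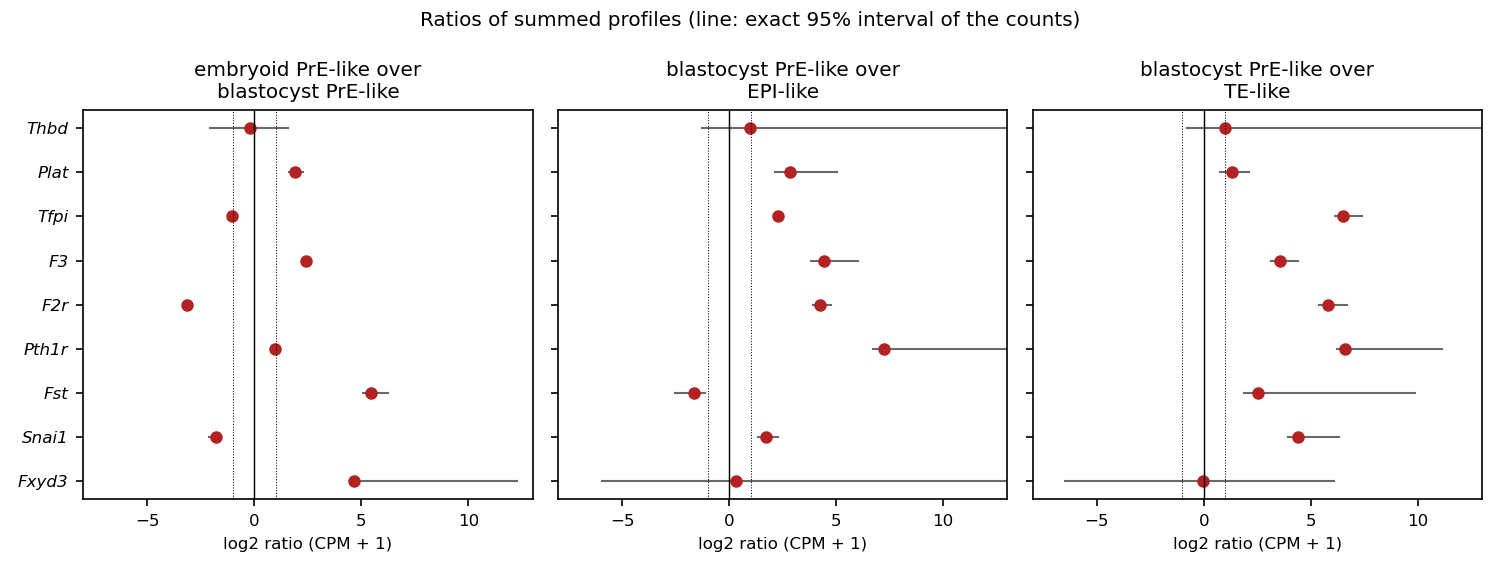
Log2 ratios of summed levels (CPM + 1) for the 9 genes, in embryoid over blastocyst PrE-like cells and in blastocyst PrE-like over EPI-like and over TE-like cells, with exact 95% intervals of the counts as lines (cut at the axis ends) and dotted lines at 2-fold. F3, Plat, Fst and Fxyd3 lie right of the dotted lines in the first panel, F2r and Snai1 left of them, and Tfpi at -1.04 just past the left one.

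The blastocyst endoderm itself held 2 clusters, and the genes with enough counts to read differed by less than 2-fold between them. F2r stood at 439 CPM in the cluster led by Fgf10, Sox17 and Pdgfra (289 cells), against 247 CPM in the cluster led by Cubn, Spink3 and Cited1 (158 cells), a log2 ratio of 0.83 (0.65 to 1.01). Snai1 stood at 73.1 CPM in the Fgf10/Sox17 cluster, against 37.9 CPM in the Cubn/Spink3 cluster, a log2 ratio of 0.93 (0.50 to 1.42). Tfpi differed less, by 0.39 (0.27 to 0.51). The intervals for F3, Plat, Pth1r, Fst and Thbd included 0. For Fst, with 22 UMIs in the Fgf10/Sox17 and 4 in the Cubn/Spink3 cluster, the log2 ratio was 1.17 (-0.14 to 3.41). Little variation can therefore not be read from it.

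Levels also varied within embryoid endoderm. It was split into more clusters, from more cells, so a span from lowest to highest cluster is no like measure to the blastocyst ratios above. Over the 8 embryoid PrE-like clusters F3 was lowest, at 122 CPM, in the Cubn/Apoc2 cluster, whose genes serve uptake and lipid transport. It was highest, at 1859 CPM, in the cluster led by Ctgf and Gkn2, a span of 15.2-fold. Tfpi ran the other way, from 77.1 CPM in the Ctgf/Gkn2 cluster to 517 CPM in the Tfec/Cubn cluster, a span of 6.70-fold. The Ctgf/Gkn2 cluster (549 cells) therefore held 24.1 F3 UMIs per Tfpi UMI (20.8 to 28.1), and the Cubn/Apoc2 cluster (574 cells) 0.263 (0.238 to 0.290). All 8 embryoid clusters had a higher F3 per Tfpi ratio than the 0.119 and 0.142 of the blastocyst PrE-like clusters.

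Fst followed F3 in part. It ran from 35.6 CPM in the Nepn/Rbp4 cluster to 657 CPM in the cluster led by the Wnt antagonists Frzb and Sfrp5, a span of 18.4-fold, with 629 CPM in the Ctgf/Gkn2 cluster and 533 CPM in the Myl9/Dab1 cluster. Fxyd3 and Snai1 were also highest in the Ctgf/Gkn2 cluster, at 64.2 and 45.3 CPM, and lowest at 10.2 CPM in the Cubn/Apoc2 cluster and 7.82 CPM in the shallow Hspa12b/Acta1 cluster. F2r peaked in the Frzb/Sfrp5 cluster at 91.1 CPM, below both blastocyst PrE-like clusters. Pth1r was the most even, from 186 to 395 CPM, a span of 2.13-fold. Plat was lowest, at 33.2 CPM, where F3 was highest, and reached 123 CPM in the cluster led by Ibsp and Chac1.

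**Figure D3:**
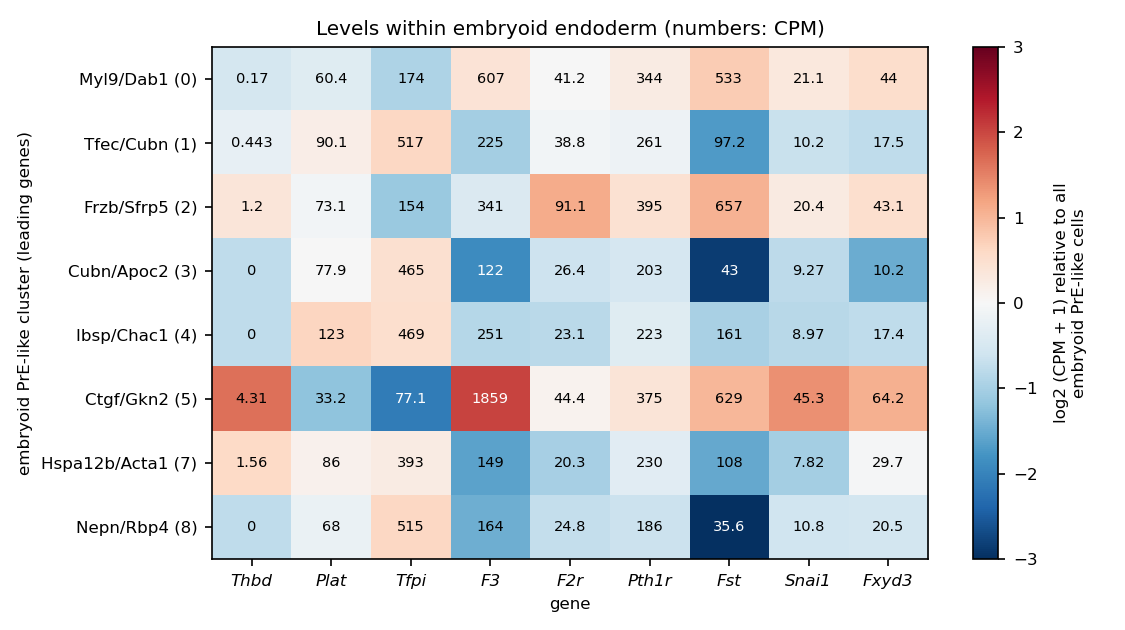
Level of each gene in the 8 embryoid PrE-like clusters, named by leading genes outside the set with the cluster number in brackets. Numbers are CPM and colours the log2 (CPM + 1) relative to all embryoid PrE-like cells; F3 at 1859 CPM and Tfpi at 77.1 CPM meet in the Ctgf/Gkn2 row.

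Across these 8 clusters the genes formed opposite groups, given as a description because the clusters share 1 library. The Pearson correlation of log2 (CPM + 1) was -0.91 between Tfpi and F3, -0.96 between Tfpi and Snai1 and -0.88 between Tfpi and Fst. It was 0.95 between F3 and Snai1, 0.96 between Pth1r and Fst and 0.81 between Plat and Tfpi. Over all 19 cluster profiles of both libraries, Pth1r was most like Col4a2 (r = 0.99), Adora1 and Foxa2, Fxyd3 most like Rgl3 (0.99), Ntn4 and Fam20c, and Fst most like Marveld1 (0.96), Wdr35 and Klhl9. F3 was most like Chic2 (0.95), S100g and Kdelr3, Plat like Vegfa (0.95), App and Clic1, and Tfpi like Ckap4 (0.94), Sulf2 and Tbc1d1. F2r was most like Pcdh19 (0.90), Uap1 and Rcn3, and Snai1 like Abl1 (0.89), Tmem101 and Klc1. Thbd, with few UMIs, reached 0.77 with 3110062M04Rik, followed by Fndc1 and Mon2.

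Single cells were then sorted by whether they held F3, Tfpi or both. Among thinned cells, 25.4% of embryoid PrE-like cells had F3 without Tfpi, against 6.08% of blastocyst PrE-like cells. Tfpi without F3 marked 24.7% of embryoid PrE-like cells, against 62.3% of blastocyst PrE-like cells. Both genes were detected in 11.6% of the embryoid and 9.49% of the blastocyst cells. In the Ctgf/Gkn2 cluster 66.0% of cells had F3 alone and 1.66% Tfpi alone. A typical cell of either endoderm carried a similar number of the 9 genes, on average 1.76 in embryoid and 1.77 in blastocyst PrE-like cells, while 66.0% of blastocyst EPI-like and 95.3% of TE-like cells carried none.

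**Figure D4:**
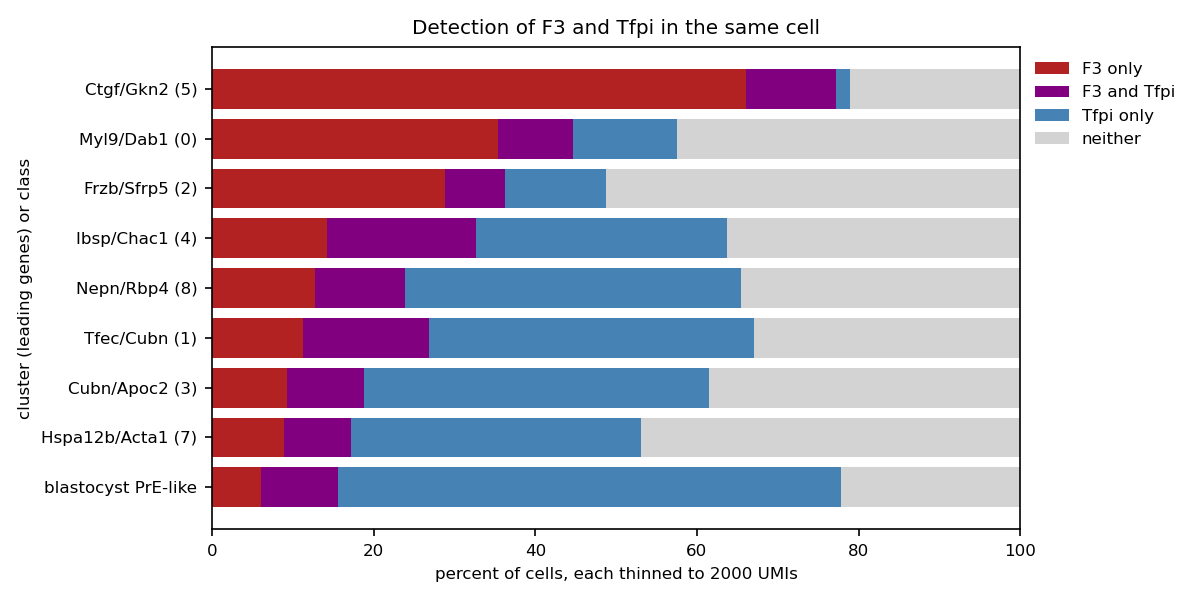
Percent of cells, each thinned to 2000 UMIs, with F3 alone, F3 and Tfpi, Tfpi alone or neither, in the 8 embryoid PrE-like clusters (sorted by F3 alone) above blastocyst PrE-like cells. F3 alone covers 66.0% of the Ctgf/Gkn2 cluster, and Tfpi alone covers 62.3% of blastocyst PrE-like cells.

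Co-detection was set against the number of cells that the genes' own shares would give. In embryoid PrE-like cells Tfpi and Fst met in 302 cells, where their shares over the class give 483, a ratio of 0.63. Tfpi and F3 met in 510 cells where 592 follow from the shares (0.86), and F3 and Fst in 640 where 493 follow (1.30). Fst and Snai1 met in 57 cells where 37.7 follow (1.51). For these pairs most of the departure lay between clusters. With shares taken within each cluster the ratios became 0.89 for Tfpi with Fst, 1.03 for Tfpi with F3, 1.07 for F3 with Fst and 1.18 for Fst with Snai1. Other pairs did not all move towards 1. Snai1 with Fxyd3 (13 cells), the highest class ratio of the 28 pairs with at least 5 cells from the shares, went from 1.73 to 1.38. Plat with Fxyd3 (42 cells) went from 1.13 to 1.30, and F2r with Fxyd3 (16 cells) from 0.82 to 0.76. No doublets were removed from the embryoid library, and their part in the cells with both genes was not tested.

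**Figure D5:**
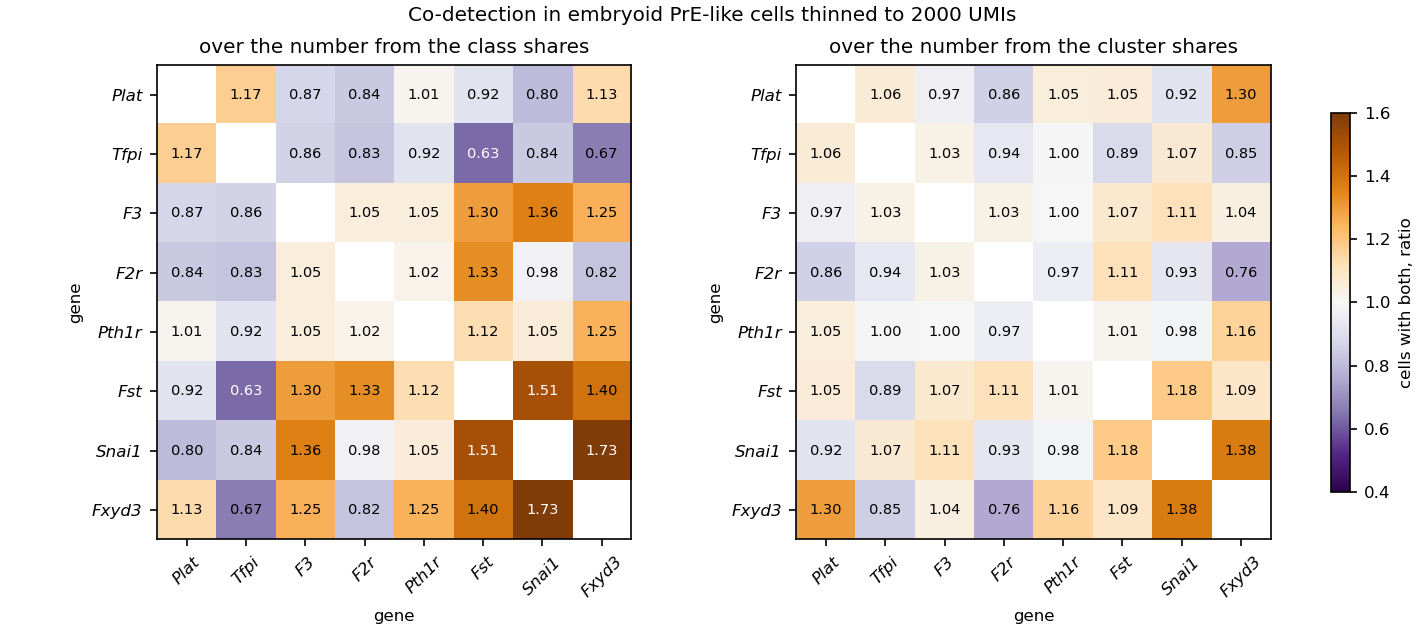
Cells with both genes over the number given by the genes' shares, for pairs of 8 genes (without Thbd) in embryoid PrE-like cells thinned to 2000 UMIs, from shares of the class (left) and of each cluster (right). Tfpi with Fst is at 0.63 on the left and 0.89 on the right.

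In blastocyst PrE-like cells, of which there were fewer, the pair ratios lay on both sides of 1. Tfpi and F2r met in 154 of 411 thinned cells where 146 follow from the shares, and Tfpi and Pth1r in 73 where 71.8 follow. F2r and Pth1r met in 57 where 49.6 follow (1.15). Tfpi and F3 met in 39 where 45.9 follow, a ratio of 0.85, near the 0.86 of embryoid PrE-like cells. With shares taken within each cluster it was 0.84. F2r and Snai1 met in 18 cells where 23.3 follow (0.77). Pairs with Fst or Fxyd3 were too rare there to read, with 4 and 0 cells carrying the gene after thinning.

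Embryoid cells outside the PrE-like clusters carried part of the set. An unnamed cluster of 295 cells led by Slpi and Tnc had 186 CPM Plat, above every embryoid PrE-like cluster, with 102 CPM F2r, 61.7 CPM Snai1 and 13.6 CPM Pth1r. FIB-like cells had 64.0 CPM Snai1. A further unnamed cluster of 92 barcodes with almost no mitochondrial RNA (median 0.215%) had 762 CPM F3. It had 11 of 15 detected PrE markers high and stayed unnamed because of its leading genes, so it is not shown to lie outside the endoderm.

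The wider clotting and fibrinolysis genes with enough counts to read included higher and lower ones. Many listed genes were below a mean of 5 CPM, so their counts are to be read against all genes with at least 1 UMI. Of those, 12.3 percent were at least 2-fold higher and 8.61 percent lower in embryoid than in blastocyst PrE-like cells. The mean of 5 CPM was reached by 5 of the coagulation, 4 of the anticoagulant and 6 of the fibrinolysis genes. Genes below 1 CPM in both endoderms could not reach 2-fold, because 1 CPM was added, and they draw the medians of these lists towards 0. Of 16 coagulation genes with a UMI, 2 were at least 2-fold higher in embryoid than in blastocyst PrE-like cells and 1 was lower. Their median log2 ratio was 0.06. Prothrombin (F2) stood at 23.8 CPM in embryoid cells, against 1.70 CPM in blastocyst cells, a log2 ratio of 3.20 (2.76 to 5.13). Ggcx, Vkorc1 and Mcfd2, which serve the carboxylation or export of clotting factors, differed by less than 2-fold. Of 10 anticoagulant genes, 2 were higher and 2 lower, with a median of 0.24. Protein S (Pros1) stood at 41.4 CPM in embryoid and 321 CPM in blastocyst PrE-like cells, a log2 ratio of -2.93. The C1 inhibitor gene Serping1 stood at 1.52 CPM in embryoid and 109 CPM in blastocyst PrE-like cells (-5.45), while Procr and Anxa5 were within 2-fold.

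Of 15 fibrinolysis genes, 3 were higher and 3 lower, with a median of 0.24. Thbs1 stood at 36.4 CPM in embryoid PrE-like cells, against 3.40 CPM in blastocyst PrE-like cells (3.09). The plasminogen receptor Plgrkt differed by 1.14. S100a10, whose protein binds plasminogen with annexin A2, stood at 90.7 CPM in embryoid and 255 CPM in blastocyst PrE-like cells (-1.48). The protease inhibitor Serpine2 stood at 51.1 CPM in embryoid and 107 CPM in blastocyst PrE-like cells (-1.06).

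Partners of the receptors included genes in both directions. Of 9 protease-activated receptor and G protein genes, 1 was at least 2-fold higher in embryoid PrE-like cells and 0 lower, with a median of -0.09. That gene was Gnai2, an inhibitory G protein subunit, at 428 CPM in embryoid and 164 CPM in blastocyst PrE-like cells, while Gna12, Arhgef1 and Arhgef12 were within 2-fold. Of 10 listed genes of the parathyroid hormone axis 6 were matched, and the ligand gene Pthlh was not. Of these 6, 0 differed by 2-fold, with a median of 0.15. Prkar1a, Prkaca and Creb1 were among them. Gnas, also among them, had 23 UMIs in embryoid and 5 in blastocyst PrE-like cells, too few to read. It overlaps other genes on both strands. Ramp2, a receptor partner protein, stood at 62.5 CPM in embryoid PrE-like cells, against 111 CPM in blastocyst PrE-like cells, and in the blastocyst at 1.14 CPM in EPI-like and 0.84 CPM in TE-like cells.

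Among 11 activin and follistatin genes, 2 were higher, 1 lower, and the median was 0.13. Smad3, which carries activin signals to the nucleus, stood at 46.7 CPM in embryoid PrE-like cells, against 4.61 CPM in blastocyst PrE-like cells (3.09), whereas Smad2 and Smad7 were within 2-fold. The follistatin-like Fstl1 differed by -1.07, opposite to Fst. Of 10 genes of epithelial to mesenchymal transition, 0 were higher and 2 lower, with a median of -0.15. E-cadherin (Cdh1) stood at 263 CPM in embryoid and 208 CPM in blastocyst PrE-like cells, and Fn1 and Vim were also within 2-fold. The sodium pump subunit Atp1b1 stood at 748 CPM in embryoid and 221 CPM in blastocyst PrE-like cells (1.76), while Atp1b3 was within 2-fold.

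Genes counted above without a name were at most 17.2 CPM in both endoderms and are named here after their values were seen. They were F8, Klkb1, Proc, Serpina10, Plg, Plau, Inha, Snai3 and Zeb1. Of these Inha, the inhibin alpha subunit, stood at 17.2 CPM in embryoid PrE-like cells, against 0.49 CPM in blastocyst PrE-like cells.

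Parietal and visceral endoderm lists differed in direction. Of 18 parietal endoderm genes, 1 was at least 2-fold higher in embryoid than in blastocyst PrE-like cells and 7 were lower, with a median of -0.70. The basement membrane gene Nid1 stood at 35.7 CPM in embryoid and 249 CPM in blastocyst PrE-like cells, and Hspg2 at 38.9 CPM in embryoid and 251 CPM in blastocyst cells. The retinol receptor Stra6 (log2 ratio -2.63) and the endoderm factor Gata6 (-2.09) were lower too, and the 1 higher gene, looked up after its value was seen, was Col4a2 (1.22). Of 18 visceral endoderm genes, 11 were higher and 2 lower, with a median of 1.28, where 12.3 percent of all genes with a UMI were higher and 8.61 percent lower. The mean of 5 CPM was reached by 16 of the parietal and 12 of the visceral genes. The retinol carrier Rbp4 stood at 353 CPM in embryoid and 0.24 CPM in blastocyst PrE-like cells, from 1 blastocyst UMI, and the thyroxine carrier Ttr at 327 CPM in embryoid and 1.70 CPM in blastocyst cells. S100g (5.44) and Apob (4.5) were higher too, and the 2 lower genes, likewise looked up afterwards, were the uptake receptor genes Cubn (-1.62) and Amn (-1.88). Both lists share genes with the markers that named the PrE-like clusters, so neither is independent of the naming.

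Immediate-early genes were higher in embryoid than in blastocyst endoderm. Their 12 genes summed to 6991 CPM in embryoid PrE-like cells, against 582 CPM in blastocyst PrE-like cells. Of the 12, 11 were at least 2-fold higher, where 17.2 percent of genes with a mean of at least 5 CPM were. The sum also differed by class within the embryoid library. It was 1735 CPM in embryoid EPI-like cells, against 639 CPM in blastocyst EPI-like cells. Jun stood at 1626 CPM in embryoid and 19.4 CPM in blastocyst PrE-like cells, and the log2 ratios of Fos, Fosb and Btg2 were 5.69, 6.36 and 4.56. Within embryoid endoderm the sum ran from 4627 to 10461 CPM over clusters and was 5150 CPM in the Ctgf/Gkn2 cluster, where F3 was highest. Summed YAP target genes were highest in that same cluster, at 3388 CPM, against 1220 to 2314 CPM in the other 7. Ctgf, a gene of this list, leads that cluster, and genes of both lists were not kept out of the clustering. The YAP sum can therefore not be taken as independent of how the cluster was formed. Of 10 YAP target genes, 4 were at least 2-fold higher and 1 lower in embryoid than in blastocyst PrE-like cells as a whole, with a median of 0.49. Among genes with a mean of at least 5 CPM, 17.2 percent were higher and 11.7 percent lower. The higher genes were Ctgf, Cyr61, Crim1 and, looked up after its value was seen, Ankrd1 (3.58 CPM in embryoid and 1.21 CPM in blastocyst cells). Nt5e was the lower one, and 5, Amotl2, Lats2 and Tead1 among them, were within 2-fold. Both lists were added after values had been seen, and their part in the levels of F3 and the other genes was not tested.

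Several of the 9 genes are also made by endothelium or blood cells. Of 7 endothelial markers, 2 (Emcn and Cldn5) had 0 UMIs in both endoderms, and the list summed to 4.00 CPM in embryoid and 17.5 CPM in blastocyst PrE-like cells. Pecam1 made 0.47 CPM of the embryoid and 13.6 CPM of the blastocyst sum, and Cdh5 1.59 CPM and 3.40 CPM. Blood markers summed to 55.7 CPM in embryoid and 13.1 CPM in blastocyst PrE-like cells, of which the lysosomal gene Cd68 made 54.0 CPM and 11.6 CPM, and Cd52 and Pf4 were at 0 in both. Pth1r overlaps Myl3 on the opposite strand, Fst overlaps Gm47040 and Fxyd3 overlaps Lgi4. Whether counting used strand is not given in the sources used here, so reads of overlapping genes cannot be told apart. Myl3 was listed at 15.4 CPM in embryoid and 1.94 CPM in blastocyst PrE-like cells. No counts were listed under the symbols Gm47040 and Lgi4 in either library.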

How the data were processed

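Both deposited files hold, per the labels and the values, raw UMI counts per gene symbol and cell barcode in whole numbers. Per the submitters' processing notes the build was mm10 and the tools included STAR 2.7.1a, featureCounts 1.6.4 of Subread, UMI-tools 1.0.1 and bcl2fastq 2.19.1.403. Sources used here do not state the strand setting, annotation or cell calling. There were 28923930 UMIs over 5546 embryoid barcodes, and 11047555 over 1288 blastocyst barcodes. Barcodes were kept with at least 1000 UMIs, 500 genes and at most 25% mitochondrial UMIs. Scrublet (scanpy 1.11.5) called 18 blastocyst barcodes, which were removed, and 0 embryoid barcodes, so in that library it in effect did not work.

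Each library was clustered on its own (2000 variable genes, 30 components, 20 neighbours, Leiden resolution 1 with leidenalg 0.10.2 and seed 1). The variable genes left out the 9 genes, the markers and the first 10 lists, but not the immediate-early and YAP lists. Clusters were named from 94 markers of 9 classes, 87 of which matched. A marker was high at 20 CPM or more and at 0.333 or more of its highest cluster. A name needed at least 3 high markers and at least 50 percent of those detected, leading genes that did not go against it, and a median mitochondrial share of at least 0.1 of the library's. Marker levels were known when this scoring was written, and the 50 percent minimum was added for the cluster led by Slpi and Tnc.

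The 9 genes and the lists were chosen with earlier results of these data known. From each of 10 lists (133 genes, 124 matched) up to 4 genes were named, those with the largest absolute ratio between the endoderms among genes at 20 CPM or more in either. Counts for the FXYD and sodium pump list are not reported here. For each of the 9 genes the 3 most alike were named, by Pearson r over 19 cluster profiles among 9968 genes reaching 20 CPM. The immediate-early and YAP lists were added later and follow the same rule. Positions come from GENCODE genes and RefSeq promoters of GRCm38, the assembly of mm10. Scripts were tested on simulated data.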

Additional observations from a re-analysis of the deposited data

How the results depend on the processing

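With 1 library per group no library could be left out, and all intervals cover counting error. No paired analysis was possible because each group has 1 library and the replicate number was given in accession order. The 4 counts of genes at least 2-fold apart stayed within 1.5 times of the reported count under all 9 alternative settings tried for each. The exceptions to equal counts were 5 genes (10 CPM added) and 6 genes (median-of-ratios scaling) higher in PrE-like over TE-like cells, against 7, and 7 genes higher over EPI-like cells with each cell weighted equally, against 6. Equal counts can hide exchanged genes: with each cell weighted equally 7 genes were higher over TE-like cells, but Plat (0.80) had left and Thbd (1.14) had entered. Of the other recomputed values 247 stayed the same and 30 moved, 16 of the 30 when 10 CPM were added. Same meant within counting error, or within 1.5 times for the percentages of all genes. Among log2 ratios of at least 2-fold, 0 changed sign. A change of direction was not scored for smaller ratios, co-detection or percentages. The Tfpi ratio between the endoderms ran from -1.27 to -1.0 and that of Pth1r from 0.84 to 1.00, so both lie at the edge of 2-fold. F3 ran from 2.29 to 2.63, F2r from -3.27 to -2.91, Fst from 4.32 to 5.90 and Fxyd3 from 1.98 (10 CPM added) to 4.88. Median-of-ratios scaling shifts all PrE-like over TE-like ratios by 0.38. The embryoid PrE-like share ran from 64.1% to 90.4% of cells with the settings. At 4000 UMIs per cell, co-detection of Tfpi with Fst was 0.71 and of Plat with Fxyd3 0.80 of the number from their shares, against 0.63 and 1.13. Thbd, and Fxyd3 in the blastocyst, were limited by depth.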
